A study of Ovis aries with 2 samples.

Results

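Barcodes with at least 200 and under 500 detected genes are described here, 4803 of the 27768 barcodes in the deposited matrices of 2 libraries. They were selected on measured values: a gene number in that range (genes with at least 1 unique molecular identifier, UMI), under 10% of UMIs on symbols that start with MT-, and under 200 per 10000 UMIs summed over AHSG, AFP, TTR and SERPINA1. They are called low-gene barcodes below. The 19084 barcodes with 500 or more genes that met the same mitochondrial and plasma protein limits are called deeper barcodes and served as the comparison within each library.

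The series profiled sheep embryos at embryonic day 16 by droplet RNA sequencing, with 1 library of Ujumqin embryos as the control group and 1 library of Hulunbuir Short-tail embryos as the experimental group. The design text gives 3 embryos for each breed, and no label tells which embryo a barcode came from. Both preparations were digested with enzymes, passed through a strainer, treated with a buffer that lyses red blood cells and loaded at about 17400 cells. The ewes had received hormones to time mating, tissue outside the embryo proper was dissected away before dissociation, and with 1 library per breed a breed difference lacks any replicate check.

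A droplet barcode collects the RNA of whatever its droplet held, so the number of genes found in it depends on the amount of RNA captured. A droplet may hold an intact cell, a cell that has lost part of its RNA, or RNA set free by broken cells, which is shared out among the droplets of a library. In ovine embryos of this age, blood, vessels, somites and the neural tube form. What each low-gene barcode held was not tested.

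The Ujumqin matrix had 5617 barcodes in the gene range, 32.9% of its 17059 barcodes, and the Hulunbuir matrix had 1054, or 9.84% of 10709. The mitochondrial limit left out 1157 and 553 of them, and the plasma protein limit left out 158 and 0. This gave 4302 low-gene barcodes in Ujumqin sheep, 25.2% of all barcodes (exact binomial 95% interval 24.6 to 25.9%), and 501 in Hulunbuir sheep, 4.68% (interval 4.29 to 5.10%). Intervals here and below cover counting error only. Without the mitochondrial limit the Hulunbuir number was 1054, and from 300 genes upward the Ujumqin number was 2260. The deeper barcodes numbered 10011 and 9073, and 998 and 153 barcodes had under 200 genes. The libraries shared 61 barcode sequences, of which 12 were low-gene barcodes in Ujumqin sheep, 2 in Hulunbuir sheep and 1 in both.

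Low-gene barcodes made up a large part of the Ujumqin barcodes and a small part of its UMIs. They held 3573248 of 212933364 UMIs in that library (1.68%) and 357707 of 131385353 in the Hulunbuir library (0.272%). Their median was 734 UMIs in Ujumqin sheep (500 to 4251) and 704 in Hulunbuir sheep (500 to 1141), against 18938 and 12423 in deeper barcodes. The lowest total of any barcode in either matrix was 500 UMIs. That floor on UMIs, and not only the gene range, therefore bounds the low-gene barcodes from below.

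At the same number of UMIs, a Ujumqin barcode showed fewer genes. Among barcodes with 500 to under 600 UMIs, the median was 243 genes in Ujumqin sheep (1156 barcodes, 5th to 95th percentile 219 to 276) and 338 in Hulunbuir sheep (142 barcodes, 309 to 374). The low-gene barcodes had a median of 306 and 396 genes and 2.42 and 1.74 UMIs per detected gene. Without 3 features abundant in Ujumqin sheep, described below, the Ujumqin value was 2.00, and the barcodes with 500 to under 600 UMIs had a median of 426 other UMIs in Ujumqin and 548 in Hulunbuir sheep. Gene numbers were not compared at matched UMIs without these features, so their part in the gap was not tested. In Ujumqin sheep 2042 low-gene barcodes had 200 to under 300 genes, 1415 had 300 to under 400 and 845 had 400 to under 500. In Hulunbuir sheep the numbers were 1, 262 and 238.

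Values changed gradually across the border at 500 genes. In Ujumqin sheep the 384 barcodes with 450 to under 500 genes had a median of 1365 UMIs and 0.994% mitochondrial UMIs, and the 332 with 500 to under 550 genes had 1592 UMIs and 0.795%. The corresponding Hulunbuir medians were 916 UMIs and 0.408% (112 barcodes) just inside and 1072 UMIs and 0.462% (128 barcodes) just outside. At the lower border, 69 Ujumqin barcodes had 200 to under 220 genes and 2 had 180 to under 200, while Hulunbuir sheep had 0 of either. The Ujumqin medians there were 517 UMIs and 3.13% mitochondrial UMIs inside and 1044 UMIs and 5.31% in the 2 barcodes outside. Next to the mitochondrial limit, 75 Ujumqin barcodes lay at 9 to under 10% and 76 at 10 to under 11%, and the Hulunbuir numbers were 4 and 6. Next to the plasma protein limit, 13 Ujumqin barcodes lay at 150 to under 200 per 10000 and 8 at 200 to under 250, with median mitochondrial shares of 3.68% and 1.59%.

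The most abundant transcripts of Ujumqin low-gene barcodes came from 3 features that carry no gene symbol. Levels are given as UMIs of a gene per 1000000 UMIs summed over a group of barcodes (CPM). The most abundant of them, ENSOARG00020015536, stood at 79188 CPM in low-gene and 117352 CPM in deeper barcodes, and the next, ENSOARG00020004314, at 55108 and 98675 CPM. Together the 3 features took 15.3% of low-gene and 25.1% of deeper UMIs. In the Hulunbuir library they were far lower, at 347 CPM in low-gene and 133 CPM in deeper barcodes, and 391 of 501 low-gene barcodes had no UMI of them. They had at most 4 UMIs in any low-gene barcode, while 1 deeper barcode had 4504 of the 17094 in that group.

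The number of UMIs of these 3 features was nearly the same in most Ujumqin low-gene barcodes, whatever their gene number. Its median was 119 UMIs with 200 to under 300 genes, 117 with 300 to under 400, 117 with 400 to under 500 and 122 with 500 to under 1000. The middle 90% of low-gene barcodes lay between 92 and 191 UMIs. Since the number of all UMIs rose over these ranges, the share of the 3 features fell from 20.2% through 13.9% and 9.52% to 5.86%. Deeper barcodes instead were spread widely: 2220 (22.2%) had under 1% of their UMIs on the 3 features and 5044 (50.4%) had 25% or more. The latter held 479 CPM of ALAS2, which encodes the enzyme that starts haem synthesis in red cell precursors, against 3.48 CPM in the former. Of the low-gene barcodes, 3 had under 1% and 301 (7.00%) had 25% or more.

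**Figure D1:**
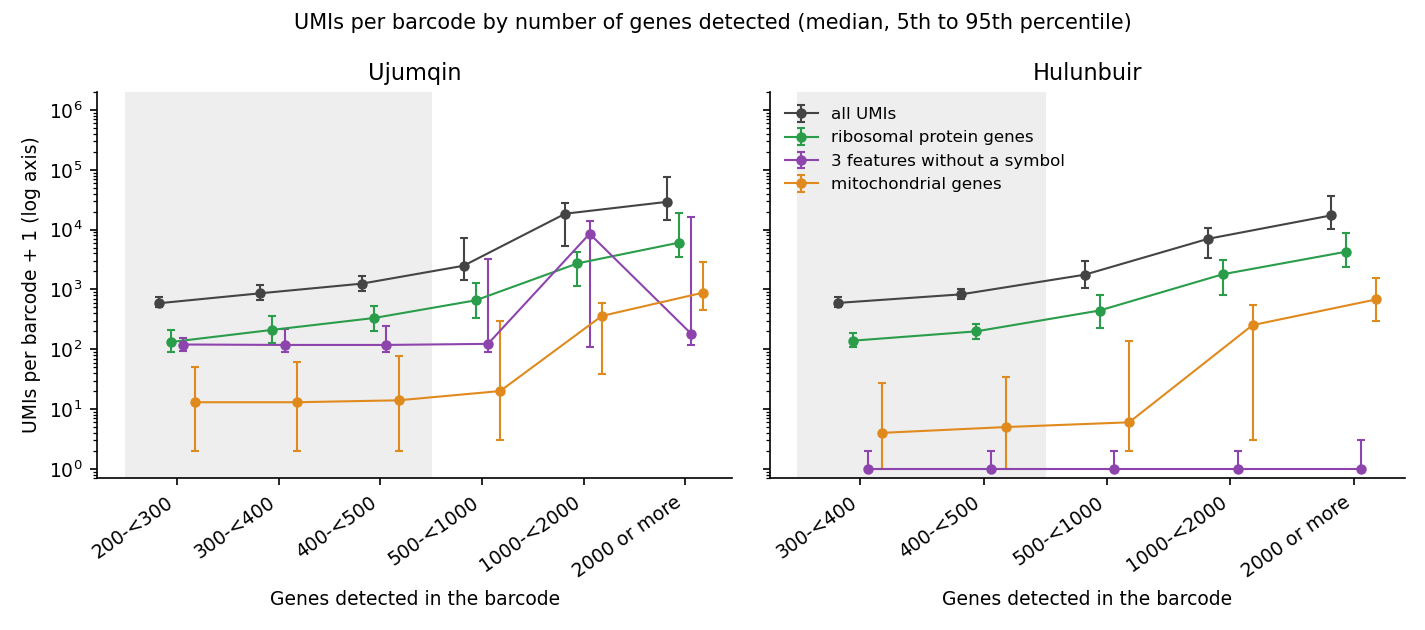
UMIs per barcode (log axis, 1 added) against the number of genes detected, for all genes, ribosomal protein genes, mitochondrial genes and the 3 features without a symbol. Points are medians, bars run from the 5th to the 95th percentile, and the shaded ranges hold the low-gene barcodes. In Ujumqin sheep the 3 features stay between medians of 117 and 122 UMIs up to 1000 genes.

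Transcript groups ranged from those whose UMIs stayed level to those whose UMIs grew faster than the total. Between Ujumqin low-gene barcodes with 200 to under 300 and with 400 to under 500 genes, the mean number of all UMIs rose from 604 to 1285, a ratio of 2.13. Ribosomal protein genes rose from 137 to 345 UMIs (ratio 2.52), cytoskeleton genes by a ratio of 2.66, mesenchyme markers by 2.37 and simple epithelium markers by 2.45. Level or nearly level were the plasma protein genes of the rule, with 1.36 and 1.38 UMIs per barcode (ratio 1.01, interval 0.944 to 1.08), the 3 features (1.13) and the erythroid list (0.734 and 0.854 UMIs, 1.17). Each plasma protein gene behaved alike, with ratios of 1.04 for AHSG, 0.957 for AFP, 1.12 for TTR and 0.929 for SERPINA1. Mitochondrial genes lay between, from 17.0 to 22.0 UMIs (1.30), as did the cardiomyocyte (1.25), megakaryocyte (1.62), immediate early (1.81) and integrated stress (1.98) lists. The steepest were the neural crest (3.17, interval 2.69 to 3.75), spinal cord (3.26, interval 1.84 to 5.85), presomitic (3.38, interval 2.45 to 4.68) and neuron (4.58, interval 2.87 to 7.45) lists. The spinal cord interval included the 2.13 of all UMIs.

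In Hulunbuir low-gene barcodes, mitochondrial transcripts, which the rule limits, were nearly level. From 300 to under 400 genes to 400 to under 500 genes, all UMIs rose from 602 to 838 (ratio 1.39) and ribosomal protein UMIs by 1.42, while mitochondrial UMIs were 7.63 and 7.87 (ratio 1.03, interval 0.969 to 1.10). The basement membrane list had a ratio of 0.909 (interval 0.694 to 1.19), the neural crest list 1.04 (interval 0.743 to 1.46) and the 3 features 0.907 (interval 0.625 to 1.31). Gene number chose the barcodes and rises with UMIs by construction, so these ratios are descriptions.

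Summed over barcodes, most compared genes were within 2-fold of their level in all deeper barcodes. In Ujumqin sheep 21 of 1489 compared genes were at least 2-fold higher (1.41%) and 46 at least 2-fold lower (3.09%). In Hulunbuir sheep 64 of 2213 were higher (2.89%) and 24 lower (1.08%). Genes were compared from 50 CPM in either group, and every gene had entered the gene number that selected the barcodes, so no test was made and nothing is read from these percentages. A gene under 50 CPM in 1 group enters through the group where it is higher, so this minimum in part sets the direction of such genes and the counts and medians of their lists. Against deeper barcodes with 500 to under 1000 genes alone, the counts were 10 and 1 in Ujumqin sheep and 40 and 11 in Hulunbuir sheep. The Ujumqin lower count was 313 when deeper barcodes with 25% or more on the 3 features were left out, an alternative chosen after seeing the data. Other counts moved by over 1.5 times with the minimum level, the fold limit, the total used or the gene range. The Hulunbuir higher count was 511 among barcodes with under 350 genes, which held 55856 UMIs.

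Across genes within a library, log2 levels with 1 CPM added correlated at r = 0.96 between low-gene and deeper barcodes in Ujumqin (1489 genes) and in Hulunbuir sheep (2213 genes). Within 2-fold of each other were 95.6% and 96.1% of these genes, and 99.2% and 97.9% when deeper barcodes had 500 to under 1000 genes. Against deeper barcodes with 1000 to under 2000 genes the shares were 70.8% (r = 0.90) and 93.8% (r = 0.96), and against those with 2000 or more genes 88.4% (r = 0.95) and 95.9% (r = 0.95). The low-gene profiles of the 2 libraries correlated at r = 0.83 over 2181 genes, 57.5% of them within 2-fold. Genes are not independent replicates, and library and breed cannot be told apart.

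Over 1447 genes compared in both libraries, 3 were at least 2-fold higher in low-gene barcodes of both and 6 were lower in both. A further 9 were higher and 36 lower in Ujumqin sheep alone, and 8 were higher and 12 lower in Hulunbuir sheep alone, which was not tested as a difference. Higher in both were MYL4, GNG11 and ENSOARG00020007111, a feature without a symbol that was chosen after its values were seen. It stood at 140 against 26.6 CPM in Ujumqin sheep (log2 fold 2.39) and at 450 against 63.6 CPM in Hulunbuir sheep (2.82). GNG11, which encodes a G protein gamma subunit, stood at 218 against 92.3 CPM (1.24) and at 143 against 59.5 CPM (1.26). Both GNG11 and MYL4 were under 2-fold in Ujumqin sheep when deeper barcodes with 25% or more on the 3 features were left out. Against barcodes with 500 to under 1000 genes, both were under 2-fold in Hulunbuir sheep, and MYL4 also in Ujumqin sheep.

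**Figure D2:**
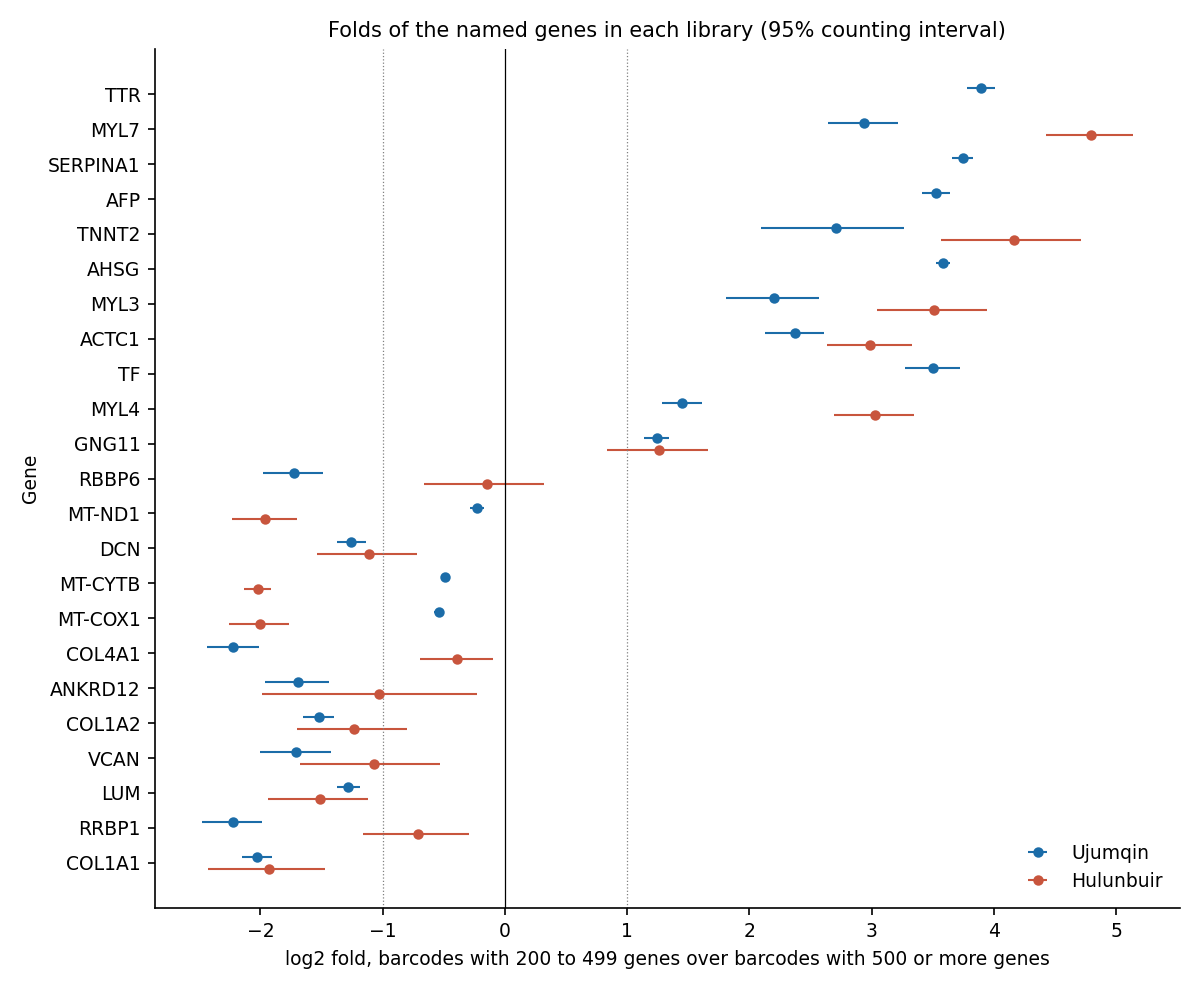
Log2 fold of the level in low-gene over deeper barcodes for genes in the text that had the largest folds, in each library, with exact 95% intervals for counting error. Genes with under 6 UMIs in the low-gene barcodes of a library are not drawn there, and dotted lines mark the 2-fold limits. COL1A1 lies at -2.03 and -1.93, and the plasma protein genes are drawn in Ujumqin sheep only.

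Several genes of secreted plasma proteins had large folds in Ujumqin low-gene barcodes, and 4 of them were used by the rule. AHSG, which encodes the plasma glycoprotein fetuin-A, was at 861 CPM against 71.7 CPM in deeper barcodes, a log2 fold of 3.59 (interval 3.53 to 3.64). TTR, which encodes the thyroid hormone carrier transthyretin, was at 218 against 14.6 CPM (3.90), SERPINA1, a protease inhibitor, at 361 against 27.0 CPM (3.74), and AFP, the fetal albumin-like protein, at 203 against 17.6 CPM (3.53). These 4 genes limited both groups of barcodes through the rule, which keeps their levels low in both and supports nothing about them. TF, which encodes the iron carrier transferrin, and APOA2, which encodes an apolipoprotein, were outside the rule. TF was at 55.4 against 4.89 CPM (3.50), and APOA2 at 308 against 87.0 CPM (1.82). TF, TTR, SERPINA1 and AFP were under 50 CPM in deeper barcodes and entered only through the low-gene group, so the minimum in part sets their direction.

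The UMIs of these plasma protein genes were spread thinly over many barcodes. AHSG was found in 2002 of 4302 Ujumqin low-gene barcodes with at most 12 UMIs in any of them, and TF in 190 with at most 3. Of the 14 extraembryonic endoderm genes in the files, 8 were compared and 6 were at least 2-fold higher, with a median log2 fold of 3.52 beside 0.11 for all compared genes. The summed list stood at 2485 CPM against 679 CPM, AHSG was its most abundant gene and 0 of its genes were at 0. As 4 of the 6 higher genes were used by the rule, nothing is read from this count, median or sum. Of the 4 compared genes outside the rule, TF and APOA2 were past the limit, and TF entered only through the low-gene group. APOA1, another apolipoprotein gene, was at 417 against 382 CPM (0.13). RBP4, a retinol carrier gene, was lower at 41.4 against 72.2 CPM (-0.80, interval -1.05 to -0.57). RBP4 was named after its values were seen and entered only through the deeper group. When the deeper barcodes were taken without the mitochondrial and plasma protein limits, the 6 folds turned negative (AHSG -1.54, SERPINA1 -1.45, TTR -1.31, TF -1.27, APOA2 -1.24 and AFP -0.57). Both limits were dropped at once there, and their parts in the change were not told apart.

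Hulunbuir low-gene barcodes held almost no transcripts of the 4 plasma protein genes of the rule. AFP and TTR had 0 UMIs among 357707 (the floor of 3 counts stands for 8.39 CPM), and AHSG and SERPINA1 had 2 each. APOA1 was the gene of the list past the limit there, at 436 against 181 CPM (log2 fold 1.27, interval 1.03 to 1.49), with 156 UMIs in 74 of 501 barcodes, and it was under 2-fold among barcodes with under 350 genes. The summed list stood at 545 against 279 CPM, 1 of 2 compared genes was at least 2-fold higher, and 7 genes were at 0, namely AFP, TTR, APOC3, ALB, FGG, CUBN and HNF4A.

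The 6 genes lower in both libraries were COL1A1, COL1A2, LUM, DCN, VCAN and ANKRD12, all but the last of them genes of matrix proteins. VCAN in Ujumqin sheep and ANKRD12 in both entered only through the deeper group, where they were higher. Of the type I collagen chains, COL1A1 was at 156 against 634 CPM in Ujumqin sheep (-2.03, interval -2.15 to -1.91) and at 106 against 405 CPM in Hulunbuir sheep (-1.93, interval -2.43 to -1.47). COL1A2 was at 139 against 401 CPM (-1.52) and at 120 against 282 CPM (-1.23). The collagen-binding proteoglycan genes LUM (264 against 641 CPM, and 143 against 407 CPM) and DCN (168 against 401 CPM, and 143 against 308 CPM) were lower too. VCAN, a large matrix proteoglycan gene, was at 28.8 against 94.0 CPM (-1.70) and 75.5 against 159 CPM (-1.07), and ANKRD12, a nuclear protein gene, at 33.9 against 110 CPM (-1.70) and 33.5 against 68.6 CPM (-1.03). COL3A1, another fibrillar collagen gene, was not past the limit in either library, at 191 against 374 CPM (-0.97) and 179 against 224 CPM (-0.33, interval -0.70 to 0.03), and was named after these values were seen.

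These decreases depended on which barcodes were compared and how they were summed. Against Ujumqin barcodes with 500 to under 1000 genes, the log2 folds were 0.56 for COL1A1, 0.90 for COL1A2, 0.86 for LUM, 0.51 for DCN and 0.70 for VCAN, all of the opposite sign. In Hulunbuir sheep LUM was then at 0.09, and all 6 genes were less than 2-fold apart. With the mean over barcodes, COL1A2, DCN and LUM in Ujumqin sheep and ANKRD12 and DCN in Hulunbuir sheep were under 2-fold, as were DCN and VCAN among Hulunbuir barcodes with 350 genes or more and LUM and ANKRD12 among those with fewer. In Ujumqin sheep the lower level of these 5 genes was thus not seen against the barcodes nearest in gene number, and ANKRD12 was at -0.52 there.

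Of the mesenchyme list, 4 of 6 compared genes were at least 2-fold lower in each library and 0 were higher. The share lower over all compared genes was 3.09% in Ujumqin and 1.08% in Hulunbuir sheep. The list had medians of -1.27 and -1.17 beside 0.11 and 0.13 for all compared genes. Its most abundant gene was VIM, the intermediate filament gene of mesenchymal cells, at 2244 CPM in both Ujumqin groups and at 3016 against 2145 CPM in Hulunbuir sheep (0.49). The summed list stood at 3184 against 4716 CPM and at 3791 against 3858 CPM, so in Hulunbuir sheep VIM differed in direction from the collagen and proteoglycan genes of the list. PDGFRB was at 0 in Hulunbuir low-gene barcodes.

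COL4A1, COL18A1, RRBP1 and RBBP6 were at least 2-fold lower in Ujumqin sheep. COL4A1, a chain of the type IV collagen of basement membranes, was at 51.8 against 241 CPM (-2.22), and COL18A1 at 26.0 against 71.8 CPM (-1.46). The basement membrane and matrix list had 2 of 2 compared genes at least 2-fold lower in Ujumqin sheep, beside 3.09% of all compared genes (median -1.84, summed 167 against 500 CPM, COL6A3 at 0). COL18A1 entered only through the deeper group. In Hulunbuir sheep 0 of 4 were past the limit (median -0.02, summed 643 against 762 CPM, with COL6A3, HSPG2 and BGN at 0), and COL4A1 was the most abundant gene at 268 against 351 CPM. Inside clusters the summed Hulunbuir list had the opposite direction. It was at 511 against 240 CPM in cluster 4 (1.09) and at 952 against 250 CPM in cluster 15 (1.93). In Ujumqin sheep the list was higher in 3 and lower in 4 clusters. RRBP1, a ribosome-binding protein of the endoplasmic reticulum, was at 38.1 against 178 CPM in Ujumqin sheep (-2.23) and at 129 against 210 CPM in Hulunbuir sheep (-0.71). RBBP6, a ubiquitin ligase gene, was at 39.2 against 130 CPM (-1.73) and at 101 against 111 CPM (-0.15). In Ujumqin sheep RRBP1 and RBBP6 also entered only through the deeper group.

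Among endoplasmic reticulum chaperones, 2 of 11 compared genes were at least 2-fold lower in Ujumqin sheep and 0 of 14 in Hulunbuir sheep, with medians of -0.47 and -0.28. As 3.09% and 1.08% of all compared genes were lower, nothing is read from the 0 of 14. HSP90B1 was at 354 against 786 CPM (-1.15) and the lectin chaperone gene CANX at 46.7 against 96.5 CPM (-1.05). CANX entered only through the deeper group, so the minimum in part sets the 2 of 11 and the Ujumqin median. PPIB was the most abundant gene in both libraries, at 1023 and 1588 CPM, and the summed list stood at 2394 against 3363 CPM and at 5328 against 6832 CPM. Inside clusters the sum was higher in low-gene barcodes in 2 of 2 Hulunbuir clusters (0.37 and 0.67). In Ujumqin sheep it was higher in 2 and lower in 5 clusters. Against Ujumqin barcodes with 500 to under 1000 genes, the sign turned for COL4A1 (0.42), COL18A1 (0.77), RRBP1 (0.26), HSP90B1 (0.08) and the summed basement membrane list (0.56). With the mean over barcodes HSP90B1, CANX and COL18A1 were under 2-fold, and CANX also among barcodes with 350 genes or more and after removal of mitochondrial, ribosomal and haemoglobin genes from the total.

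Heart muscle genes had the largest folds of the Hulunbuir low-gene barcodes, and few barcodes carried them. MYL7, the atrial myosin light chain gene, was at 201 against 7.27 CPM (log2 fold 4.79, interval 4.43 to 5.14), with 72 UMIs in 6 of 501 barcodes. TNNT2, cardiac troponin T, was at 78.3 against 4.36 CPM (4.17), MYL3 at 123 against 10.8 CPM (3.51), MYL4 at 226 against 27.8 CPM (3.03) and ACTC1, cardiac actin, at 201 against 25.3 CPM (2.99). The troponin genes TNNC1 (168 against 29.7 CPM, 2.50) and TNNI1 (72.7 against 13.0 CPM, 2.48) completed the 6 of 6 compared cardiomyocyte markers that were higher, with a median of 3.01 beside 0.13 for all compared genes. All 6 were under 50 CPM in deeper barcodes and entered only through the low-gene group, so this count and median are in large part set by the minimum. MYL3 is not on that list.

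Of the 356 UMIs of the cardiomyocyte list, 328 (92.1%) were in 10 barcodes and 94 in 1 barcode. In an alternative chosen after seeing the data, the 6 barcodes with 5 or more of these UMIs were left out of the low-gene group alone. That lowers the folds by construction, and they were then -1.29 for MYL4, -0.93 for MYL3, -0.62 for TNNT2, -0.57 for ACTC1 and -0.22 for the summed list, which had stood at 995 against 116 CPM. The heart muscle result of the Hulunbuir library thus came mostly from 10 barcodes. Among barcodes with under 350 genes ACTC1 stood at -0.50, and MYL4 and TNNI1 were under 2-fold. MYL7, TNNT2, MYL3, MYL4, ACTC1, TNNC1 and TNNI1 were each under 2-fold when only deeper barcodes with under 1000 genes were compared.

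In Ujumqin low-gene barcodes the same list stood at 250 against 61.5 CPM, with 1 of 1 compared gene, MYL4, at least 2-fold higher (90.1 against 32.9 CPM, 1.45), which also entered only through the low-gene group. Of the 892 UMIs of the list, 46.5% were in 10 barcodes, and 27 barcodes had 5 or more. MYL4 was at 0.04 without those barcodes, an alternative chosen after the data were seen and applied to the low-gene group alone. It was at 0.34 with the mean over barcodes and at 0.47 when deeper barcodes with 25% or more on the 3 features were left out. NKX2-5, a heart transcription factor gene, was at 0 in the low-gene barcodes of both libraries. Against deeper barcodes with 500 to under 1000 genes MYL4 was at -0.40 and the summed list at -0.69.

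PECAM1 and KDR were higher in Hulunbuir low-gene barcodes. PECAM1, an adhesion molecule of endothelial junctions, was at 103 against 26.4 CPM (log2 fold 1.97, interval 1.46 to 2.44) and KDR, a receptor for vascular endothelial growth factor, at 78.3 against 25.9 CPM (1.60, interval 1.00 to 2.13). PLVAP, the most abundant marker, was at 363 against 220 CPM (0.73). In all 2 of 3 compared endothelium markers were at least 2-fold higher, beside 2.89% of all compared Hulunbuir genes, with a median of 1.60. The list summed to 579 against 283 CPM from 207 UMIs in 100 barcodes. PECAM1 and KDR entered only through the low-gene group, which in part sets that count and median. CLDN5, ESAM, ERG, SOX18, MMRN2 and ROBO4 were at 0. In Ujumqin sheep the list stood at 125 against 127 CPM, 0 of 1 compared gene was past the limit (PLVAP, 95.7 against 93.9 CPM), and TIE1, CLDN5, ESAM, ERG, MMRN2 and ROBO4 were at 0. The Ujumqin sum was at 1.16 against deeper barcodes with 500 to under 1000 genes and at -1.07 when those with 25% or more on the 3 features were left out, so its value near 0 depended on the deeper barcodes taken.

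Keratins and CRABP1 were higher in Ujumqin low-gene barcodes. KRT18 and KRT8, the paired keratins of simple epithelia, were at 1361 against 609 CPM (1.16) and at 96.6 against 36.9 CPM (1.39), where the Hulunbuir folds were -0.03 and 0.27. The simple epithelium list had 2 of 3 compared genes at least 2-fold higher in Ujumqin sheep, beside 1.41% of all compared genes (median 1.16, summed 2639 against 1380 CPM, UPK1B at 0). KRT8 entered only through the low-gene group, so the minimum in part sets that count and median. The list had 0 of 4 in Hulunbuir sheep (median 0.12, summed 5530 against 5733 CPM, CDH1, UPK3A and UPK1B at 0), where KRT18 was at 2891 CPM. CRABP1, which encodes a binding protein for retinoic acid, was at 220 against 69.5 CPM (1.66) and made up nearly all of the neural crest list (223 against 71.9 CPM). SOX10, FOXD3 and ERBB3, which define neural crest, were at 0 in the low-gene barcodes of both libraries. In Hulunbuir sheep CRABP1 was at 389 against 421 CPM, and the list, with 0 of 1 past the limit, summed to 408 against 428 CPM.

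Against Ujumqin barcodes with 500 to under 1000 genes, KRT18 and KRT8 were less than 2-fold apart, and CRABP1 and the neural crest list were both at -0.24. With the mean over barcodes, CRABP1, GNG11, KIF20B and KLF1 were under 2-fold, as were ALAS2 and KLF1 among Ujumqin barcodes with under 350 genes and KRT18 with a total without the 3 features. The keratins, CRABP1 and GNG11 were also less than 2-fold apart when deeper barcodes with 25% or more on the 3 features were left out. Of the 27 named Ujumqin genes past the limit, 20 were under 2-fold against barcodes with 500 to under 1000 genes, all but AHSG, AFP, TTR, SERPINA1, TF, APOA2 and GNG11. In Hulunbuir sheep 28 of 34 were under 2-fold there, all but PECAM1, KDR, APOA1 and the 3 abundant Ujumqin features.

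**Figure D3:**
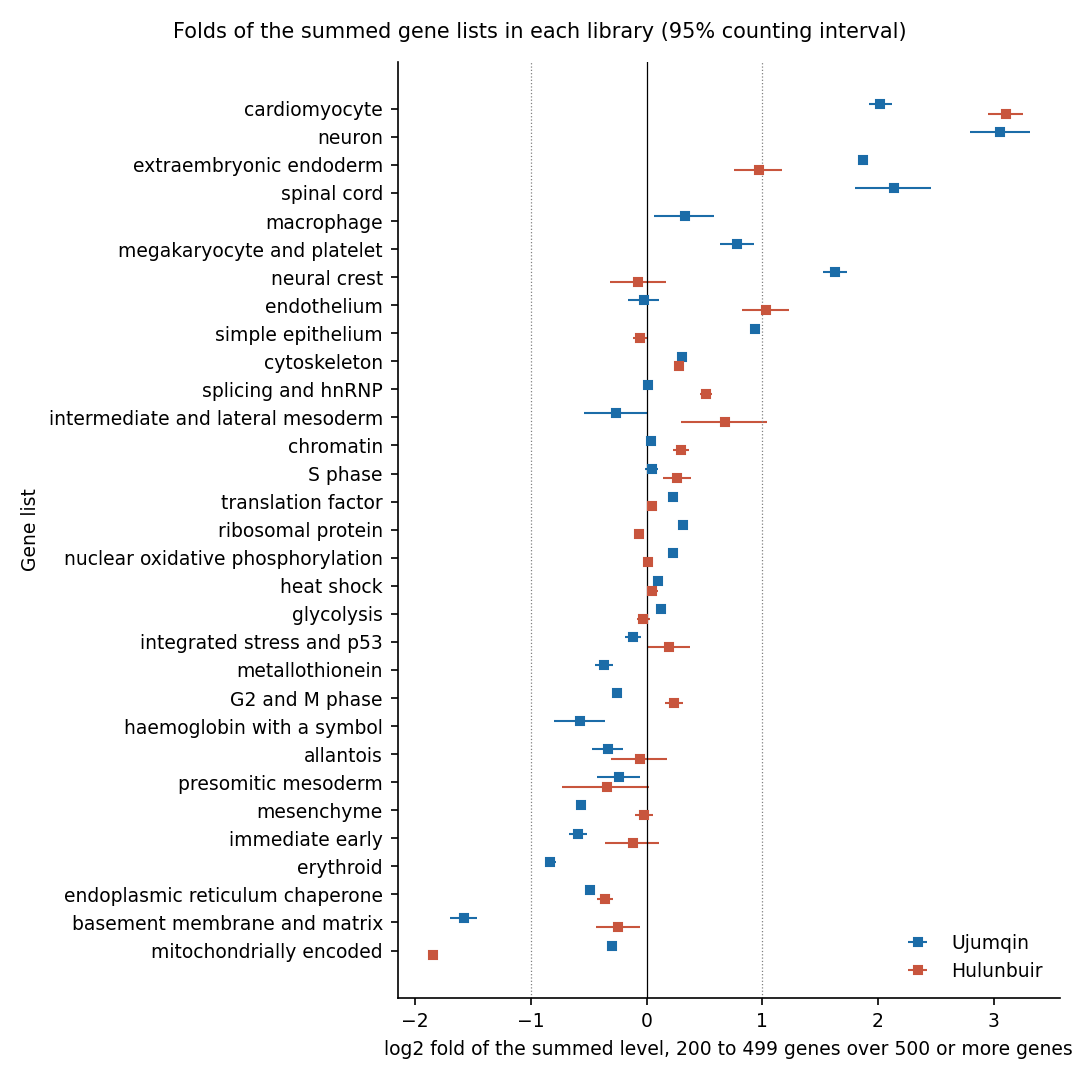
Log2 fold of the summed level of each gene list in low-gene over deeper barcodes of each library, with exact 95% intervals for counting error, for lists with at least 50 UMIs in the low-gene barcodes. Dotted lines mark the 2-fold limits. The mitochondrial list lies at -1.84 in Hulunbuir and -0.30 in Ujumqin sheep, while several lists of common cell functions lie near 0.

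Mitochondrial transcripts were lower in Hulunbuir low-gene barcodes. The rule limited this measure in both groups, so these values, here and inside clusters, are descriptions and support nothing further. All 10 compared genes were at least 2-fold lower there (median -1.83), and the list summed to 10836 against 38924 CPM. MT-CYTB, of the cytochrome bc1 complex, was at 1960 against 7966 CPM (-2.02), MT-COX1, of cytochrome oxidase, at 380 against 1528 CPM (-2.01), MT-ND1 at 333 against 1294 CPM (-1.96), and MT-ND2, of complex I and the most abundant in these barcodes, at 2203 against 8005 CPM (-1.86). The median Hulunbuir low-gene barcode had 4 mitochondrial UMIs, close to the 5 of barcodes with 500 to under 1000 genes and far from the 472 of all deeper barcodes. As a share of UMIs the medians were 0.508% and 3.60%.

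In Ujumqin sheep 0 of 10 mitochondrial genes were past the limit (median -0.27), and the list summed to 22483 against 27616 CPM. MT-CYTB, the most abundant, was at 4455 against 6244 CPM, and the median share of mitochondrial UMIs was 1.56% in low-gene and 2.07% in deeper barcodes. Against barcodes with 500 to under 1000 genes, the Hulunbuir folds shrank to under 2-fold for all 10 compared mitochondrial genes, MT-ATP6 and MT-COX2 were at 0.00 and 0.05, and the summed list was at -0.24.

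Ribosomal protein genes were the largest named group of low-gene barcodes and were less than 2-fold apart from deeper barcodes. They summed to 247712 against 199039 CPM in Ujumqin sheep and to 236783 against 247735 CPM in Hulunbuir sheep, with 0 of 46 compared genes past the limit in each (medians 0.34 and -0.04). Few of all compared genes were past it (1.41% higher and 3.09% lower in Ujumqin, 2.89% and 1.08% in Hulunbuir sheep), so nothing is read from the 0 of 46. RPS25, RPL17, RPL10L and RPL3L were at 0 in both. The small difference turned with the denominator in Ujumqin sheep: the summed fold was 0.32 as given and -0.04 when deeper barcodes with 25% or more on the 3 features were left out. Among abundant genes of Ujumqin low-gene barcodes, RPLP1, RPS18 and RPS27A were at 10103, 10055 and 9924 CPM, and were at 9469, 8814 and 8968 CPM in Hulunbuir ones.

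Several lists of common cell functions lay near 0. Nuclear genes of oxidative phosphorylation had 0 of 51 compared genes past the limit in each library (medians 0.18 and -0.01, 19279 against 16443 CPM and 22183 against 21985 CPM), led by ATP5MC3. Translation factors had 0 of 11 in each (medians 0.20 and 0.08, 11940 against 10161 CPM and 12801 against 12385 CPM), led by TPT1. Glycolysis had 0 of 7 and 0 of 11 (medians 0.14 and 0.23, 4017 against 3674 CPM and 7143 against 7290 CPM), led by GAPDH. Heat shock genes had 0 of 3 and 0 of 4 (medians 0.19 and 0.05, 6247 against 5846 CPM and 11163 against 10772 CPM), led by HSP90AB1. No compared gene of these 4 lists was thus past the limit in either library. Few of all compared genes were (1.41% higher and 3.09% lower in Ujumqin, 2.89% and 1.08% in Hulunbuir sheep), so nothing is read from this. The sign of small sums depended on the comparison: 12 Ujumqin and 6 Hulunbuir lists under 2-fold changed sign against barcodes with 500 to under 1000 genes, and 15 Ujumqin lists when deeper barcodes with 25% or more on the 3 features were left out.

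Stress response lists showed no gene past the limit, and nothing is read from this. Of all compared genes, 1.41% were higher and 3.09% lower in Ujumqin sheep, and 2.89% and 1.08% in Hulunbuir sheep. Immediate early genes had 0 of 4 and 0 of 3 (medians -0.65 and -0.36, 381 against 573 CPM and 422 against 459 CPM), with FOS at 144 against 187 CPM the most abundant in Ujumqin and JUN at 157 against 201 CPM in Hulunbuir sheep. Inside clusters the immediate early sum was higher in low-gene barcodes in 2 of 2 Hulunbuir clusters (0.43 and 1.515). In Ujumqin sheep it was higher in 3 and lower in 4 clusters, from -1.32 to 0.34. The integrated stress and p53 list had 0 of 2 in each (medians 0.21 and 0.40, 475 against 516 CPM and 704 against 615 CPM), led by ATF4. Metallothioneins, which bind metals, had 0 of 3 in Ujumqin sheep (median -0.31, 383 against 495 CPM, led by MT2) and no compared gene in Hulunbuir sheep (16.8 against 12.6 CPM). The Ujumqin sum was at 2.83 when deeper barcodes with 25% or more on the 3 features were left out, an alternative chosen after seeing the data. That filter acted on the deeper group alone. Deeper barcodes of cluster 6, which was led by MT1C, MT1A and MT2, had 48.0% of their UMIs on these features. Nothing is therefore read from the 2.83. Inside clusters the metallothionein sum was higher in low-gene barcodes in 6 of 7 Ujumqin clusters (median 0.76).

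Splicing and cytoskeleton lists had at most 2 genes past the limit in a library. Of all compared genes, 2.89% were higher in Hulunbuir and 3.09% lower in Ujumqin sheep. Nothing is read from the splicing counts, which lie near these shares. In Hulunbuir sheep splicing and hnRNP genes had 1 of 21 compared genes at least 2-fold higher (median 0.54, 8110 against 5676 CPM), HNRNPA1 at 475 against 229 CPM (1.05), and HNRNPA2B1 was the most abundant at 1252 against 801 CPM (0.64). Cytoskeleton genes had 2 of 10 higher there (median 0.29, 16044 against 13170 CPM), the microtubule regulator gene STMN1 at 75.5 against 32.7 CPM (1.21) and MARCKS, an actin-binding membrane protein gene, at 453 against 220 CPM (1.04). STMN1 entered only through the low-gene group, so the minimum in part sets this count and median. In Ujumqin sheep 1 of 16 splicing genes was lower, SRSF7 at 24.1 against 70.4 CPM (-1.55, list median -0.10, 3130 against 3111 CPM), and 0 of 8 cytoskeleton genes were past the limit (median 0.43, 12053 against 9771 CPM). All 3 higher genes were under 2-fold against barcodes with 500 to under 1000 genes, STMN1 also among barcodes with 350 genes or more, and HNRNPA1 and MARCKS in other alternatives, among them the mean over barcodes and the total after removal of mitochondrial, ribosomal and haemoglobin genes.

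Compared chromatin and cell cycle genes differed by less than 2-fold except KIF20B. As 3.09% of all compared Ujumqin genes were lower, nothing is read from this count of 1. The chromatin list had 0 of 9 and 0 of 12 past the limit (medians -0.27 and 0.52, 2462 against 2397 CPM and 5239 against 4260 CPM), led by H3F3A. S phase genes had 0 of 7 and 0 of 12 (medians 0.04 and 0.28, 793 against 769 CPM and 1602 against 1333 CPM). Among G2 and M phase genes, 1 of 12 was lower in Ujumqin sheep, the mitotic kinesin gene KIF20B at 48.4 against 105 CPM (-1.12, list median -0.43, 1601 against 1913 CPM), and 0 of 17 were past the limit in Hulunbuir sheep (median 0.29, 3612 against 3058 CPM, led by TOP2A). No symbol of the long nuclear transcript list was in the files, in which 9808 features have no symbol, so that group could not be measured.

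Over the whole library, 2 genes of the erythroid list were at least 2-fold lower in Ujumqin low-gene barcodes. ALAS2 was at 119 against 264 CPM (log2 fold -1.15) and KLF1, the erythroid transcription factor gene, at 33.9 against 75.01 CPM (-1.15). They were 2 of 4 compared erythroid genes (median -0.99), beside 3.09% lower among all compared Ujumqin genes. KLF1 entered only through the deeper group, so the minimum in part sets this count and median. The erythroid list summed to 932 against 1657 CPM, its most abundant gene was AHSP, the haemoglobin-stabilizing protein gene, at 410 against 649 CPM, and EPOR was at 0. When deeper barcodes with 25% or more of UMIs on the 3 features were left out, an alternative chosen after seeing the data, ALAS2 was at 2.26 and KLF1 at 2.28. That change of sign follows from the filter, which took the barcodes richest in ALAS2 out of the deeper group alone. Inside clusters the direction differed, and the list was higher in low-gene barcodes in 5 of 7 Ujumqin clusters, from -1.35 to 1.62 with a median of 0.85. In Hulunbuir sheep the list summed to 86.7 against 82.4 CPM (0 of 1 past the limit), and ALAS2, KLF1 and AHSP were among 14 genes at 0. The 4 haemoglobin genes with a symbol summed to 49.0 against 72.9 CPM and to 14.0 against 10.7 CPM, led by HBQ1, with 0 of 1 compared in Ujumqin sheep past the limit and none compared in Hulunbuir sheep.

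Markers of other cell types had low summed levels. Megakaryocyte and platelet markers summed to 113 against 65.7 CPM in Ujumqin sheep (0 of 1 past the limit), led by GP1BB, and had 0 UMIs in Hulunbuir sheep. The neuron list summed to 40.6 against 4.88 CPM (log2 fold 3.06), mostly the growth cone gene STMN2 at 39.2 against 4.57 CPM, and to 61.5 against 32.9 CPM in Hulunbuir sheep. The spinal cord list summed to 23.5 against 5.34 CPM (2.14), led by SOX2, and to 72.7 against 50.6 CPM, with SOX1, SOX21, OLIG2, NKX6-1, DBX1 and HES5 at 0 in both. None of the Ujumqin neuron or spinal cord genes reached the minimum for comparison. Against barcodes with 500 to under 1000 genes the Ujumqin spinal cord sum was at -0.72.

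Mesodermal lists had no gene past the limit among the few compared, and nothing is read from this. The shares over all compared genes were 1.41% higher and 3.09% lower in Ujumqin, and 2.89% and 1.08% in Hulunbuir sheep. The allantois list, led by BAMBI, summed to 129 against 162 CPM and to 405 against 422 CPM (0 of 1 and 0 of 2 past the limit). Presomitic mesoderm, led by RSPO3, summed to 67.2 against 79.3 CPM and to 168 against 213 CPM (0 of 1 and 0 of 2), and the Ujumqin sum was at 0.23 against barcodes with 500 to under 1000 genes and at -1.29 when those with 25% or more on the 3 features were left out, with TBX6, MSGN1, HES7 and MESP2 at 0 in both. Intermediate and lateral mesoderm, led by HAND2, summed to 32.2 against 38.7 CPM and to 176 against 110 CPM (0 of 0 and 0 of 1). The somite list summed to 4.48 against 3.45 CPM and to 47.5 against 22.4 CPM with 0 genes compared.

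The remaining lists had 0 genes compared. Trophoblast markers had 15 and 4 UMIs, led by ELF5, with TKDP1, PAG4 and PAG6 at 0 in both libraries. Gut endoderm markers had 11 and 4 UMIs, led by HHEX, with FOXA1, FOXA2 and SHH at 0 in both. Macrophage markers summed to 35.3 against 28.1 CPM and to 36.3 against 12.7 CPM, caudal progenitor markers to 7.56 against 1.91 CPM (log2 fold 1.98, interval 1.36 to 2.55) and 78.3 against 77.5 CPM, and endocrine markers to 7.84 against 9.18 CPM and 83.9 against 80.1 CPM.

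Low-gene and deeper barcodes of each library were clustered together, and low-gene barcodes gathered in few clusters. Every gene of a barcode can enter its cluster, so what follows is a description. Ujumqin barcodes formed 20 clusters, of which 3 held 80.1% of the low-gene barcodes and 6 held 0. Hulunbuir barcodes formed 17 clusters, and 3 of them held 90.4%. At a resolution of 2 these shares were 68.0% and 86.0%. In Ujumqin sheep 3016 low-gene barcodes (70.1%) were in the 3 clusters where they outnumbered deeper ones, and in Hulunbuir sheep there were 0 such clusters.

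**Figure D4:**
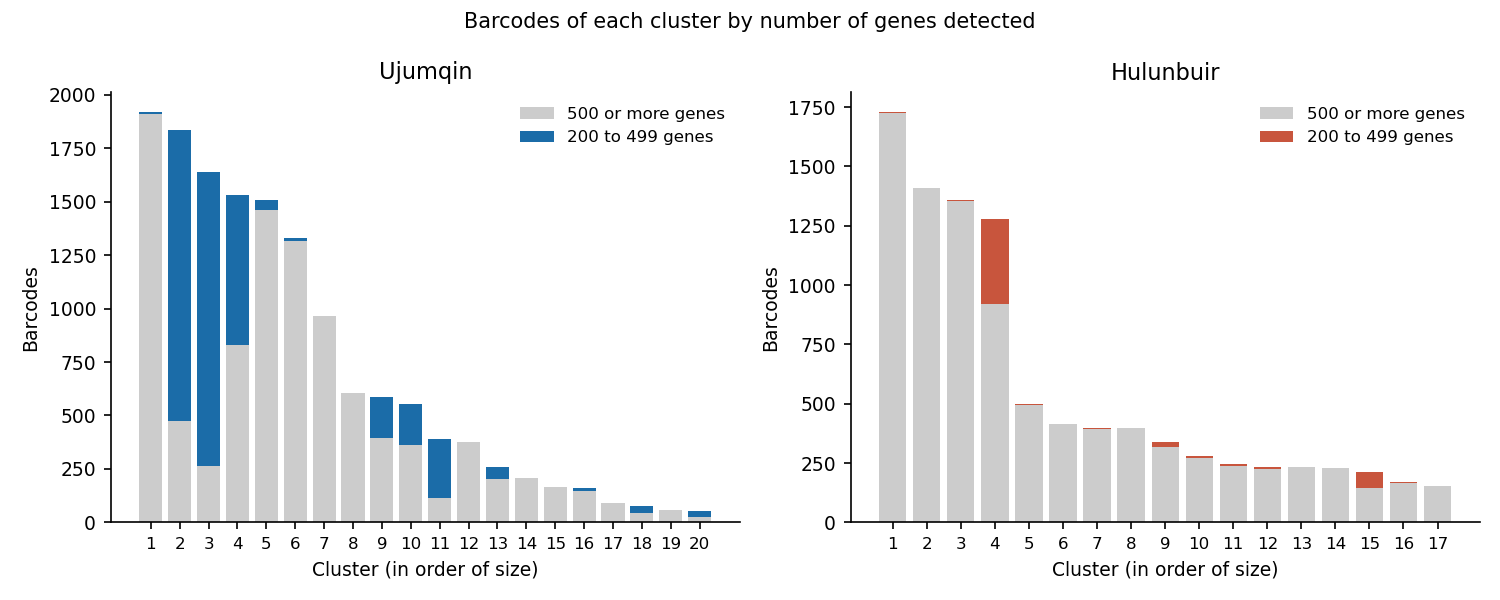
Number of low-gene (coloured) and deeper (grey) barcodes in each cluster of each library, with clusters numbered from the largest to the smallest. Low-gene barcodes fill most of Ujumqin clusters 2, 3 and 11, and most Hulunbuir low-gene barcodes are in cluster 4.

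The leading genes of the large Ujumqin clusters overlapped in part. Cluster 2 held 1365 low-gene of 1837 barcodes and was led by REG4, LGALS3, PDLIM3, TTR and KRT8, with SERPINA1, AHSG and AFP among its 10 leading genes. Cluster 3 held 1375 of 1640 and was led by SERPINA1, TTR, AHSG, TF and AFP, followed by MT1A and ALAS2. Its low-gene barcodes had a median of 644 UMIs and 3.72% mitochondrial UMIs, against 0.644% in cluster 2. Cluster 4 held 705 of 1533 and was led by CRABP1, STMN2, CD24 and SOX2. In all 3 clusters AHSG, AFP, TTR and SERPINA1, which the rule used, were among the markers found, and nothing is read from them.

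Smaller numbers of Ujumqin low-gene barcodes joined clusters with several markers of a fixed list. Cluster 11 held 276 of 388 and was led by PECAM1 and ESM1, with 2 endothelium markers, PECAM1 and PLVAP, and 5 extraembryonic endoderm markers, 4 of which the rule used. Cluster 10 held 192 of 556 and had 5 megakaryocyte and platelet markers (GP1BB, CLEC1B, PLEK, TREML1 and RGS18). Cluster 9 held 191 of 587 and had 9 simple epithelium markers, among them KRT7, CLDN4 and EPCAM. Cluster 20 held 25 of 52 and had 10 cardiomyocyte markers. In contrast, clusters 1, 5 and 6, with 10 or 12 erythroid markers each and 1918, 1507 and 1329 barcodes, held 9, 44 and 14 low-gene barcodes. Clusters 7, 8 and 14, with 9, 7 and 8 mesenchyme markers, held 0, as did clusters 12, 15 and 19. Of these, cluster 15 had 9 endothelium markers.

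Hulunbuir low-gene barcodes were mostly in cluster 4, with 361 of 1280 barcodes (72.1% of all low-gene ones), led by HAND2, PITX1, KRT8 and PRRX1. Cluster 15 held 71 of 214, led by GNG11, ESM1, RASIP1 and PECAM1, with the endothelium markers PECAM1, KDR and PLVAP. Cluster 9 held 21 of 340, and the other clusters held at most 9 each. The deeper barcodes of clusters 4 and 15 had medians of 2612 and 2359 UMIs and of 0.157% and 0.174% mitochondrial UMIs. Depth and mitochondrial share were used by the rule, so nothing is read from these medians.

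Inside a cluster, low-gene and deeper barcodes were compared where both had at least 50 barcodes, in 7 Ujumqin and 2 Hulunbuir clusters. The direction of the mitochondrial difference in Hulunbuir sheep was opposite there: the summed list was higher in low-gene barcodes in both, at 10081 against 2619 CPM in cluster 4 (log2 fold 1.94) and 7210 against 2691 CPM in cluster 15 (1.42). In Ujumqin sheep the list was higher in 3 and lower in 4 clusters, from -0.71 to 0.53.

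The extraembryonic endoderm list, which holds the 4 plasma protein genes of the rule, was also summed inside clusters. It was higher in low-gene barcodes in 7 of 7 Ujumqin clusters (0.87 to 3.05) and in 2 of 2 Hulunbuir clusters (1.01 and 2.24). AHSG was at 602 to 1100 CPM in low-gene barcodes of the Ujumqin clusters and at 83.9 to 684 CPM in deeper ones. As the rule limits these genes in both groups, nothing is read from the Ujumqin values. In the Hulunbuir gene range the plasma protein limit left out 0 barcodes. Over all Hulunbuir low-gene barcodes APOA1, which is outside the rule, had 156 of the 195 UMIs of the list. Nothing is read from the Hulunbuir values either, since every gene of a barcode can enter its cluster.

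Collagen genes did not keep 1 direction inside clusters. COL1A1 was lower in low-gene barcodes of Ujumqin clusters 2, 9 and 10 (-0.56, -0.18 and -0.99) and higher in clusters 3, 4, 11 and 13 (0.93 to 2.48), and in Hulunbuir cluster 4 it was at 115 against 55.5 CPM (1.05). The summed mesenchyme list ranged from -0.46 to 3.30 in Ujumqin clusters. The endothelium list was higher in 6 of 6 Ujumqin clusters with a value, with intervals above 0 in 4, had 0 UMIs against 10.7 CPM in the other, cluster 13, and was higher in 2 of 2 Hulunbuir clusters (1.66 and 1.92). Ribosomal protein genes ranged from -0.11 to 0.58 in Ujumqin clusters and were at -0.19 and -0.14 in Hulunbuir clusters.

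**Figure D5:**
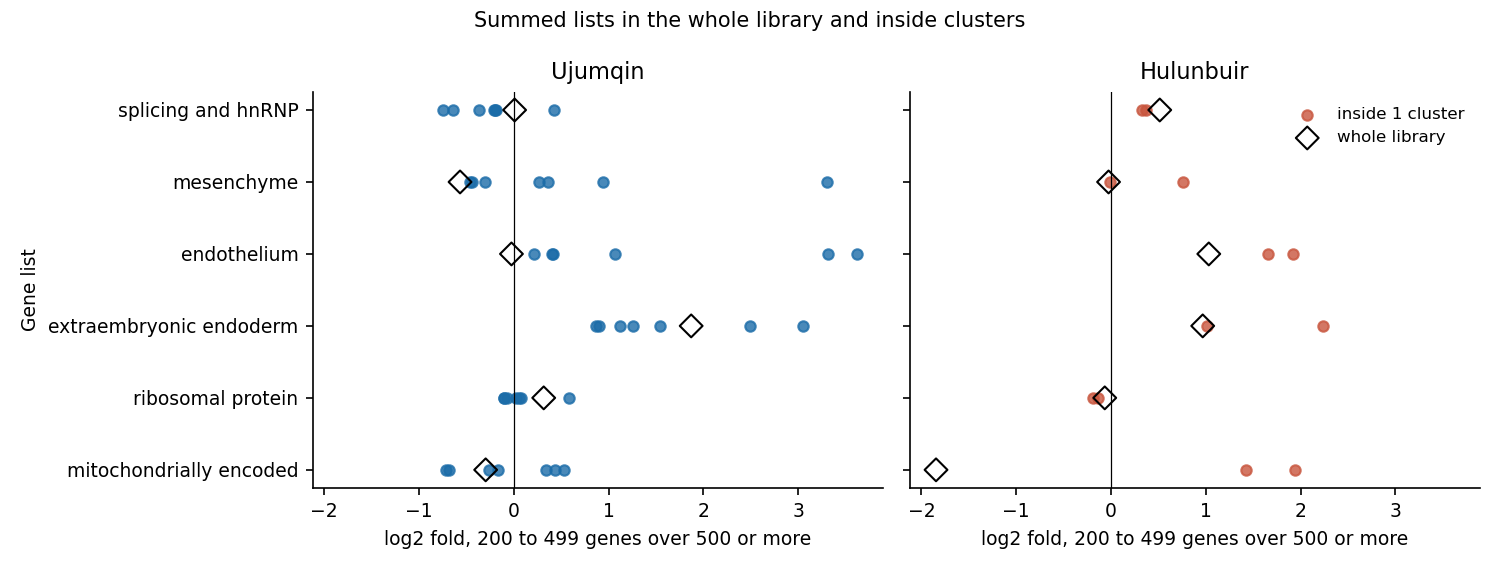
Log2 fold of 6 summed gene lists in low-gene over deeper barcodes, over the whole library (open diamonds) and inside each cluster with at least 50 barcodes of both kinds (filled circles). In Hulunbuir sheep the mitochondrial list lies at -1.84 over the library and at 1.42 and 1.94 inside clusters.

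The likeness of low-gene to deeper barcodes differed among clusters. In Ujumqin cluster 4, 99.1% of compared genes were within 2-fold (r = 0.99 across genes), in cluster 2, 97.4% (r = 0.98), in cluster 11, 92.8% (r = 0.96) and in cluster 3, 73.5% (r = 0.90). Clusters 9, 10 and 13 had 87.6% (r = 0.94), 81.8% (r = 0.92) and 67.6% (r = 0.75). In Hulunbuir clusters 4 and 15 the values were 91.7% (r = 0.95) and 72.0% (r = 0.79). The clusters also differ in the number of UMIs behind these values, and the part of depth in the difference was not tested.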

How the data were processed

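Single-cell RNA of sheep embryos was measured in 1 library per breed. The authors deposited counts of UMIs per feature and barcode, made with Cell Ranger (5.0.0 per the file headers, 3.1.0 in the submitters' notes, which also list R 3.6.1 and Seurat 3.2.0) on the Rambouillet sheep assembly, and not normalized. Of 26478 features, 9808 have no symbol, and 83 symbols name more than 1 feature, of which the first was read. Doublets were not called and were kept.

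Levels are summed UMIs of a gene over summed UMIs of all genes. Genes with 50 CPM or more in either group were compared, and past the limit means at least 2-fold. Folds have exact conditional binomial intervals and levels and shares exact Poisson or binomial intervals at 95%. A group at 0 was set at 3 counts, which stand for 0.840 CPM in the 3573248 UMIs of the Ujumqin and 8.39 CPM in the 357707 UMIs of the Hulunbuir low-gene barcodes, and no fold was given where the other group was at or under that floor. With 1 library per breed no test was made.

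For clusters, barcodes were scaled to 10000 UMIs and log-transformed, and 2000 variable genes, 30 components, 20 neighbours and Leiden at resolution 1 were used (scanpy 1.11.5, leidenalg 0.10.2, igraph 0.11.9, matplotlib 3.10.9, scikit-learn 1.9.0, pandas 2.3.3, scipy 1.17.1, numpy 2.4.6 and Python 3.11.15). Clusters keep their numbers.

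Named genes are up to 10 with a symbol in each direction in both libraries, the 5 of largest fold in each direction per library, the 10 most abundant, of each of 19 cell type marker and 18 function lists the most abundant gene and those past the limit, and the genes the rule used. Not every gene that meets this rule is printed or drawn. Genes of clusters are the leading ones. The members and lists were chosen with earlier results of these data known. The steps were tested on simulated data. Alternatives were other limits, gene ranges, totals, minimum levels, fold limits, means of barcodes and resolutions.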

Additional observations from a re-analysis of the deposited data

How the results depend on the processing

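With 1 library per breed, no result has a replicate check, and no paired analysis was possible because no label links a barcode to an embryo. The depth of the Hulunbuir low-gene barcodes limits what can be compared there, and a gene at 0 UMIs can be given only an upper limit. Causes were not tested except where the setting itself gives them.

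The Ujumqin number of 4302 low-gene barcodes was 3713 with a mitochondrial limit of 5%, 5444 without that limit, 4460 without the plasma protein limit and 2260 from 300 genes. The Hulunbuir number of 501 was 1054 without the mitochondrial limit. These changes follow from the limits themselves.

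The Ujumqin count of 21 genes at least 2-fold higher was 36 for barcodes with 350 genes or more, 10 against deeper barcodes with under 1000 genes, 36 when mitochondrial, ribosomal and haemoglobin genes were taken out of the total, 12 with the mean over barcodes, 49 at 20 CPM, 11 at 200 CPM and 7 at 4-fold. The count of 46 lower was 1 against deeper barcodes with under 1000 genes, 23 with the mean over barcodes, 117 at 20 CPM, 12 at 200 CPM and 3 at 4-fold. In alternatives chosen after seeing the data it was 106 with a total without the 3 features and 313 against deeper barcodes with under 25% of UMIs on them. The Hulunbuir count of 64 higher was 511 for barcodes with under 350 genes, 40 against deeper barcodes with under 1000 genes, 271 at 20 CPM, 7 at 200 CPM and 14 at 4-fold. The count of 24 lower was 146, 11, 53 and 2 for under 350 genes, deeper barcodes with under 1000 genes, 20 CPM and 4-fold. Minimum levels and fold limits change counts by construction, and for the others the cause was not tested.

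Hulunbuir clusters numbered 28 at resolution 2. The share of low-gene barcodes in the 3 clusters that hold most was 86.3% and 68.0% in Ujumqin sheep and 93.2% and 86.0% in Hulunbuir sheep at resolutions 0.5 and 2.

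Of results past 2-fold, Ujumqin log2 folds turned against deeper barcodes with under 1000 genes for COL18A1 (0.77), COL1A1 (0.56), COL1A2 (0.90), COL4A1 (0.42), CRABP1 (-0.24), DCN (0.51), HSP90B1 (0.0795), LUM (0.86), MYL4 (-0.40), RRBP1 (0.26) and VCAN (0.70), and for the cardiomyocyte (-0.69), spinal cord (-0.72), neural crest (-0.24) and basement membrane (0.56) lists. Hulunbuir folds turned there for LUM (0.0860), MT-ATP6 (0.0040) and MT-COX2 (0.0526). The cause was not tested. Without limits on the deeper barcodes, AFP (-0.57), AHSG (-1.54), APOA2 (-1.24), SERPINA1 (-1.45), TF (-1.27) and TTR (-1.31) turned in Ujumqin sheep. The mitochondrial and plasma protein limits were dropped at once, and their parts were not told apart. In alternatives chosen after seeing the data, ALAS2 (2.26) and KLF1 (2.28) turned in Ujumqin sheep against deeper barcodes with under 25% of UMIs on the 3 features, and ACTC1 (-0.57), MYL3 (-0.93), MYL4 (-1.29), TNNT2 (-0.62) and the cardiomyocyte list (-0.22) turned in Hulunbuir sheep without barcodes with 5 or more cardiomyocyte UMIs. Both changes follow from filters applied to 1 group alone. In addition ACTC1 was at -0.50 for barcodes with under 350 genes.

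Of 244 other values of 27 named Ujumqin genes, 114 stayed within the counting interval and 111 moved outside it with the same sign, 72 of them towards 0. Of 233 for 34 Hulunbuir genes, 159 stayed and 66 moved, 52 of them towards 0. MYL7 without the barcodes rich in cardiomyocyte UMIs and TNNC1 under 350 genes had too few counts for a fold. For lists, 72 of 245 Ujumqin and 91 of 143 Hulunbuir values stayed, and 169 and 51 moved. Among lists under 2-fold, 12 changed sign in Ujumqin and 6 in Hulunbuir sheep against deeper barcodes with under 1000 genes, among them mesenchyme, immediate early and endoplasmic reticulum chaperone genes in both, presomitic mesoderm and G2 and M phase genes in Ujumqin and basement membrane genes in Hulunbuir sheep. Against deeper barcodes with under 25% of UMIs on the 3 features, 15 such Ujumqin lists changed sign, among them metallothionein (2.83), erythroid (2.14) and haemoglobin (1.80) genes, which were then past 2-fold. This alternative was chosen after seeing the data and its filter acted on the deeper group alone, so nothing is read from these values.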
